A study of Mus musculus with 8 samples.

Results

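The proteasome genes on the arrays were taken as all genes whose symbol is Psma, Psmb, Psmc, Psmd or Psme followed by a number, on probe sets that the platform annotation ties to 1 gene. The rule gave 42 of 8251 genes, on 53 of 12422 probe sets, and each gene was described by its brightest probe set. Of these genes, 40 encode proteasome subunits or chaperones of its assembly, and 2 (Psmc3ip and Psme3ip1) only share the name of a partner. RNA of mouse follicular B cells, the recirculating B cells of spleen and lymph node follicles, was measured on 8 single-colour oligonucleotide arrays. All cells carried an antigen receptor against hen egg lysozyme (HEL). In IgM cells the receptor was an IgM, and in IgMG cells it was a chimera that had the spacer, membrane and cytoplasmic parts of IgG1 in place of those of IgM. For each receptor, 2 arrays held cells left without antigen and 2 held cells that had met HEL, so that there were 4 groups. The sources used here do not give strain, age, sex or how long the cells met HEL. Each array pooled sorted cells of several mice, 2 or 4 for IgM arrays and 5 to 8 for IgMG arrays, so receptor and the number of mice pooled cannot be told apart. Nothing states that the 2 arrays of a group held separate mice, so the p-values below measure the spread between these arrays, which may be technical.

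The proteasome degrades proteins tagged with ubiquitin. Its core is a barrel of outer rings of alpha subunits and inner rings of beta subunits, of which beta1, beta2 and beta5 (Psmb6, Psmb7 and Psmb5) cut peptide bonds. Lymphocytes replace much of this set by the immunoproteasome subunits beta1i, beta2i and beta5i (Psmb9, Psmb10 and Psmb8), which are inducible by interferon gamma and produce peptides that suit MHC class I molecules. A regulatory particle of ATPases (Psmc genes) and non-ATPase subunits (Psmd genes) binds, unfolds and feeds the substrate, and the Psme genes encode alternative activators of the core.

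The 3 immunoproteasome genes carry the main result, and the 250 bases before their starts are therefore shown 5′ to 3′ on the strand of the gene, from RefSeq on GRCm38.p6, with capitals for any match to the motifs searched. They lie at chr17:34187331-34187580 for Psmb9 (minus strand), chr17:34197945-34198194 for Psmb8 (plus strand) and chr8:105938393-105938642 for Psmb10 (minus strand).
Psmb9: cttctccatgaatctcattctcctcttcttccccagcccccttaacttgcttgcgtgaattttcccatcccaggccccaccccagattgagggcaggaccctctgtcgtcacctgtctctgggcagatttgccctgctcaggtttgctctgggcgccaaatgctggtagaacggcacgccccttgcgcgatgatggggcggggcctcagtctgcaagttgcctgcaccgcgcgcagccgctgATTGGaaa
Psmb8: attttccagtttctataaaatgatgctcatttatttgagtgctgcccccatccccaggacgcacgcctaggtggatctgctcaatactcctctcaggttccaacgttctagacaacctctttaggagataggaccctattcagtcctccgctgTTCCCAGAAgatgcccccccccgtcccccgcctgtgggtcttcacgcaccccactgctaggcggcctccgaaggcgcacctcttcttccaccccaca
Psmb10: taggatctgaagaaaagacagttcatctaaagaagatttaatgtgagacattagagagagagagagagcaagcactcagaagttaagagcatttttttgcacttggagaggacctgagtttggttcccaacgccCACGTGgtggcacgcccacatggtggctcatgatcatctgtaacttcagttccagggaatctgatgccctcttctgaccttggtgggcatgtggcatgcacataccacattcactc

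Each of the 3 windows held 1 match and no 2 of them the same one: CCAAT (the NF-Y motif, on the opposite strand) for Psmb9, TTCNNNGAA (the gamma interferon activated site) for Psmb8 and CACGTG (the E-box) for Psmb10. Such windows were at hand for 34 of the 40 subunit and chaperone genes, and the motifs were searched on both strands, with matches of different motifs free to overlap. CCAAT lay in 13 of the 34 genes (38.2%), against 33.8% of all 32851 windows of this length. TGACNNNGC, the antioxidant response element bound by Nfe2l1 and Nfe2l2, lay in 5 genes (14.7%, against 10.2% of all windows), namely Psmb5, Psmb6, Psmc6, Psmd9 and Psmd12. CACGTG lay in 4 genes (11.8% against 6.02%), the interferon-stimulated response element in 3 (8.82% against 2.98%; Psmb3, Psmd4 and Psmd9) and TTCNNNGAA in Psmb8 alone (2.94% against 7.02%). TGACGTCA (the cyclic AMP response element, in 1.55% of all windows) and the NF-kB motif (in 0.14%) lay in 0. A match is a run of letters, and no binding was measured here.

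Values below are the deposited signals on a linear scale, given in the order of the replicate numbers. Changes are log2 differences between group means of log2(signal + 16) with their standard errors, and "rose" or "fell" is used where limma's test, adjusted over 7453 tested probe sets by Benjamini-Hochberg, gave p under 0.05. Median signal per array lay between 40.7 and 47.75. Egr2, an immediate-early gene of antigen receptor signalling, stood at 18.2 to 38.3 on the unstimulated arrays and 2288 to 3692 on the HEL arrays. The B cell gene Cd79a stood between 5637 and 7758, while Cd3e, of T cells, stayed at 6.7 to 11.6. Other genes of the T cell list read higher: Cd2 761.1 to 1588.2, Cd4 13.5 to 89.8 and Thy1 6.4 to 64.2. The 10 T cell genes of 11 listed summed to between 865.4 and 1700 on the arrays, and Cd2 alone made up most of each sum. Other B cell genes moved with HEL: of 10 tested markers 2 rose and 3 fell in IgM cells, beside 6.7% and 7.27% of all tested probe sets. There Cd79b, a signalling chain of the receptor, went from 6849.6 and 6443.3 to 2876.9 and 3758.8. What part such shifts have in the results was not tested. Genes of red blood cells gave high signals on all arrays, with 5 erythroid genes of 9 listed summing to between 12692.3 and 20681.6. One array stood apart in NK cell and myeloid markers: on the second unstimulated IgMG array 7 NK cell genes of 10 listed summed to 3633 and 12 myeloid genes of 14 listed to 14119, against at most 999.1 and 5702 on the other arrays. Another, the second IgM array with HEL, had a Gapdh 5′ to 3′ signal ratio of 0.755, against 0.140 to 0.395 elsewhere. The ratio follows RNA or labelling quality, and low values mean a weaker 5′ end. By this ratio the array is not marked as poorer than the others. In RNA of pooled cells, fewer cells of a type and less RNA per cell cannot be told apart.

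All 3 immunoproteasome genes fell with HEL on average over both receptors. Psmb9 and Psmb10 fell by 0.82 ± 0.13 and 0.81 ± 0.20 on the log2 scale (1.76-fold and 1.75-fold lower), and Psmb8 fell by 0.52 ± 0.10 (1.44-fold lower), with limma adjusted p = 0.00303, 0.0199 and 0.00603.
Psmb9, the beta1i subunit, read 1094.5 and 868 on the unstimulated IgM arrays and 532.8 and 515.1 with HEL. In IgMG cells it read 1108.7 and 844.2 unstimulated and 577.5 and 550.6 with HEL. All 4 HEL arrays thus lay below all 4 unstimulated arrays, with no value between 577.5 and 844.2. The change was -0.88 ± 0.18 in IgM cells (limma adjusted p = 0.0154) and -0.76 ± 0.18 in IgMG cells (adjusted p = 0.0478). It was the only member that fell in both receptors, as 1.53% of all tested probe sets did.
Psmb8, the beta5i subunit, read 2128.5 and 2094.2 in unstimulated IgM cells and 1503.4 and 1600 with HEL. In IgMG cells it went from 2453.4 and 2288.1 to 1673.1 and 1447. Again the HEL arrays lay below all unstimulated arrays. The change was -0.44 ± 0.13 in IgM cells (limma adjusted p = 0.0609, not past the threshold of 0.05) and -0.60 ± 0.13 in IgMG cells (adjusted p = 0.0396).
Psmb10, the beta2i subunit, read 1216.6 and 817.8 in unstimulated IgM cells and 452.3 and 815.5 with HEL. In IgMG cells it read 923.5 and 909.7 unstimulated and 507.8 and 449.5 with HEL. The second IgM array with HEL, the one of the high Gapdh ratio, thus sat only just under its unstimulated counterpart, while the other 3 HEL arrays were at 507.8 or less. The change was -0.70 ± 0.28 in IgM cells and -0.92 ± 0.28 in IgMG cells (limma adjusted p = 0.134 and 0.0924), neither past the threshold by itself.

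Both arrays that stood apart were left out together, a choice made after seeing the data. The mean change was then -0.90 for Psmb9, -0.57 for Psmb8 and -1.02 for Psmb10. For Psmb10 this took out the only HEL array near the unstimulated ones (815.5), so a larger fall was bound to follow and is no support. Leaving out any 1 array kept the mean call of Psmb9 and Psmb8. That of Psmb10 ended without the first unstimulated IgM array (-0.67, adjusted p = 0.0790), the first IgMG array with HEL (-0.85, adjusted p = 0.0557) or the second (-0.77, adjusted p = 0.0803). The calls within 1 receptor were less steady. With the Gapdh ratio as a covariate, also added after seeing the data, Psmb9 lost its call in IgM cells (-0.84, adjusted p = 0.0553), as did Psmb8 (-0.55, adjusted p = 0.114) and Psmb9 (-0.80, adjusted p = 0.116) in IgMG cells, while Psmb10 passed in IgM cells (-1.05, adjusted p = 0.0341). Psmb9 lost its call in IgM cells without the first unstimulated array (-0.71, adjusted p = 0.117) or the second HEL array (-0.85, adjusted p = 0.0875). In IgMG cells, Psmb9 lost it without any 1 array other than the second unstimulated IgMG array (adjusted p = 0.0625 to 0.255), and Psmb8 without any 1 array other than the first IgM array with HEL (adjusted p = 0.0503 to 0.263).

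**Figure D1:**
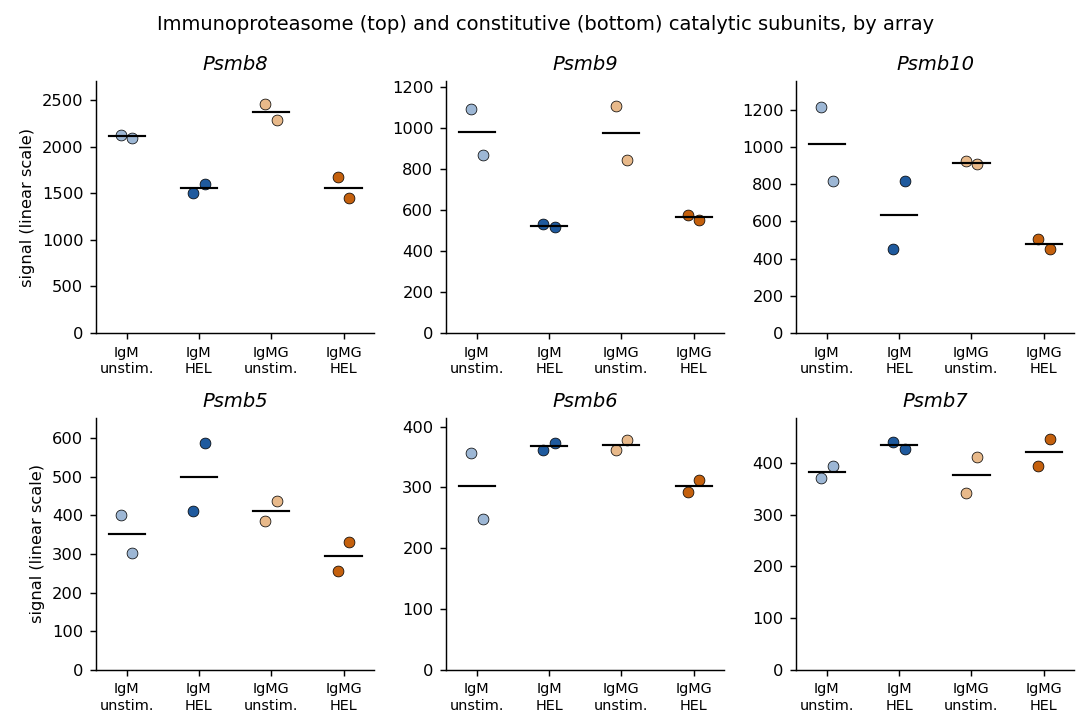
Signal (linear scale, from 0) of the immunoproteasome genes Psmb8, Psmb9 and Psmb10 in the upper row and of the constitutive catalytic genes Psmb5, Psmb6 and Psmb7 in the lower row, with 1 point per array, 2 in each of the 4 groups, and a bar at the group mean. In the upper row all 4 HEL arrays lie below the 4 unstimulated arrays for each gene, and in the lower row the HEL arrays of IgM and IgMG cells lie on opposite sides of their unstimulated arrays for Psmb5 and Psmb6.

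None of the 3 constitutive catalytic genes passed the test in either receptor or on average by its brightest probe set. Their median change was 0.29 in IgM cells, -0.28 in IgMG cells and 0.01 on average over both receptors. Psmb5, the beta5 subunit with chymotrypsin-like activity, read 400.8 and 301.7 in unstimulated IgM cells and 412.4 and 588 with HEL. In IgMG cells it read 384.6 and 436.4 unstimulated and 254.8 and 332.2 with HEL. The HEL arrays were higher in IgM and lower in IgMG cells, with no overlap in either, and the mean change was 0.01 ± 0.16. With its 2 probe sets averaged, of which the second is dim (14.5 to 56.4), Psmb5 rose in IgM cells (0.65, limma adjusted p = 0.0382).
Psmb6, the beta1 subunit, read 357.1 and 248.5 in unstimulated IgM cells and 361.5 and 373.3 with HEL, against 361.5 and 377.4 and then 291.6 and 312.6 in IgMG cells. It had the same arrangement as Psmb5 and a mean change of 0.00 ± 0.14. Psmb7, the beta2 subunit, read 371.9 and 394.1, then 441.4 and 428.5 in IgM cells, and 341.7 and 412.6, then 395.4 and 446.8 in IgMG cells. Its HEL arrays were above the unstimulated ones in IgM cells and overlapped them in IgMG cells, with a mean change of 0.17 ± 0.12.

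Each immunoproteasome gene takes the place of 1 constitutive gene in newly built cores, so the changes were set against each other within the 3 pairs. These differences carry no test. In IgM cells the change of the immunoproteasome gene minus that of its counterpart was -0.92 for Psmb8 and Psmb5, -1.16 for Psmb9 and Psmb6 and -0.88 for Psmb10 and Psmb7. In IgMG cells the same differences were -0.13, -0.48 and -1.07. Of these, the value of Psmb8 and Psmb5 in IgMG cells has no settled sign. It was 0.15 without the second IgMG array with HEL, 0.0074 without the first unstimulated IgMG array and -0.27 without the second. Without the first IgMG array with HEL it was -0.42, and with the dim second probe set of Psmb5 averaged in it was -0.51. The gap of Psmb10 and Psmb7 in IgM cells was -0.44 without the first HEL array, -0.55 without the first unstimulated array and -1.31 without the second HEL array, and that of Psmb9 and Psmb6 in IgMG cells lay between -0.71 and -0.26 with any 1 array left out.

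**Figure D2:**
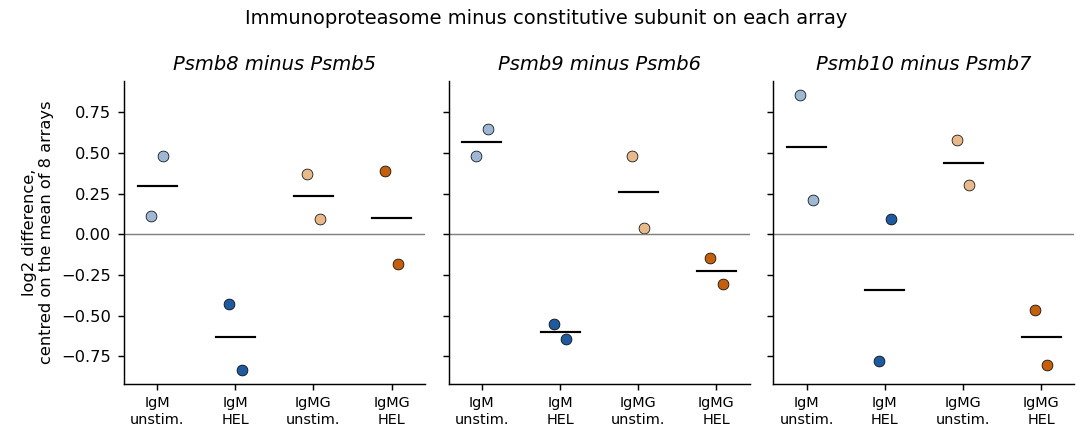
Log2 signal of each immunoproteasome gene minus that of its constitutive counterpart on each array, centred on the mean of the 8 arrays, for the 3 pairs, with 1 point per array and a bar at the group mean. The HEL arrays lie below the unstimulated arrays of their receptor for Psmb9 minus Psmb6 and Psmb10 minus Psmb7, while for Psmb8 minus Psmb5 the IgMG arrays with HEL reach from -0.18 to 0.39 and overlap the unstimulated ones.

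The 7 alpha subunits, which form the outer rings and the gate of the core, had median changes of 0.13 in IgM and 0.03 in IgMG cells. Psma3 was the only one that passed in the mean response. It read 1294 and 1569.8 in unstimulated IgM cells and 1461.1 and 2015.5 with HEL, and 1416.7 and 1085.2, then 2009.5 and 2375.5 in IgMG cells. Its groups overlapped in IgM but not in IgMG cells, and the changes were 0.27 ± 0.21 and 0.81 ± 0.21, with a mean rise of 0.54 ± 0.15 (limma adjusted p = 0.0315). That call ended on leaving out any 1 array other than the first IgM array with HEL or the first unstimulated IgMG array (adjusted p = 0.0507 to 0.123), and without both arrays that stood apart (0.33, adjusted p = 0.129). Psma7 had a change of 0.63 ± 0.22 in IgM cells (395.6 and 424.5, then 604.5 and 686.8; adjusted p = 0.0930) and 0.27 ± 0.22 in IgMG cells (329.5 and 536.2, then 507.7 and 516.3). Psma1 had the lowest mean change of the class, -0.04 ± 0.12, from changes of -0.34 ± 0.17 in IgM cells (224.8 and 210.5, then 168.6 and 167.3) and 0.27 ± 0.17 in IgMG cells (177.4 and 180.3, then 199.9 and 238.5). Its HEL arrays lay below the unstimulated arrays in IgM and above them in IgMG cells. The mean changes of Psma2, Psma4, Psma5 and Psma6 lay between 0.02 and 0.13.

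Among the structural beta subunits, which have no catalytic site, 0 of 4 passed, with class medians of 0.02 in IgM and -0.16 in IgMG cells. Psmb3 had the lowest mean change, -0.30 ± 0.12 (limma adjusted p = 0.116). It read 928.3 and 708.4, then 670.3 and 787.1 in IgM cells, and 879.9 and 888.7, then 639.8 and 645.3 in IgMG cells. The IgMG arrays with HEL were lower without overlap, while the IgM arrays overlapped. Psmb4 had the highest mean change, 0.07 ± 0.13, with 1157 and 948.9, then 957.1 and 1318.5 in IgM cells and 971.9 and 1062, then 1062.2 and 1040.1 in IgMG cells. Psmb2 changed by -0.04 and 0.07 in IgM and IgMG cells, neither past the test. Psmb1 gave different answers on its 2 tested probe sets in IgM cells. The brighter had 526.6 and 621.9, then 542.4 and 675.5 in IgM cells, a change of 0.08 ± 0.17. The other had 657 and 569.6, then 396.4 and 358, and fell by 0.68 ± 0.16 (adjusted p = 0.0258) in IgM cells and by 0.51 ± 0.11 on average (adjusted p = 0.0149). In IgMG cells the 2 probe sets were alike, with changes of -0.37 ± 0.17 and -0.34 ± 0.16, neither past the test. All 4 HEL arrays of the second probe set lay below all 4 unstimulated ones, at 358 to 490.5 against 566.3 to 657. Psmb1 is therefore uncertain in IgM cells and on average. The fall on average of the second probe set of Psmb1 also ended without the first unstimulated IgM array (-0.46, adjusted p = 0.0596) or the first IgMG array with HEL (-0.46, adjusted p = 0.0669), and its fall in IgM cells ended without any 1 array other than the first IgM array with HEL or either unstimulated IgMG array (adjusted p = 0.0508 to 0.154).

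The ATPase ring, which unfolds substrates and opens the core, showed little change: 0 of 5 tested genes passed, and the class medians were -0.02 in IgM and -0.09 in IgMG cells. Psmc5 had the lowest mean change, -0.19 ± 0.15, and read 335.5 and 280.4, then 279.4 and 217.8 in IgM cells and 316.4 and 236.6, then 234.1 and 280.9 in IgMG cells. Psmc6 had the highest, 0.02 ± 0.14. It read 1020.4 and 1134.8, then 1052.4 and 714.4 in IgM cells and 925.9 and 1086.1, then 1180.5 and 1403.1 in IgMG cells, where the HEL arrays were higher without overlap (0.35 ± 0.20, adjusted p = 0.350). Its lowest reading was on the second IgM array with HEL. Psmc1 changed by 0.04 in IgM and -0.04 in IgMG cells, Psmc2 by -0.02 and -0.13, and Psmc3 changed by 0.17 and -0.27, not past the test. The sixth, Psmc4, was too dim to be tested, with 9.4 to 35.4 over the 8 arrays.

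Of the non-ATPase subunits of lid and base, 10 of 11 were tested, with class medians of 0.04 in IgM and 0.14 in IgMG cells, and Psmd2, a large scaffold of the base, was too dim (7.1 to 36.5). Psmd12, a lid subunit, read 337.6 and 328.1, then 327.7 and 306.4 in IgM cells, and 288 and 223.5, then 416.6 and 444.9 in IgMG cells. It rose in IgMG cells by 0.73 ± 0.17 (limma adjusted p = 0.0477), while the change in IgM cells was -0.07 ± 0.17. The rise lost its call without any 1 array other than the first unstimulated IgMG array (adjusted p = 0.0617 to 0.264), and without both arrays that stood apart (0.55, adjusted p = 0.127).
Psmd1, the other large scaffold of the base, moved the opposite ways more clearly: 376.6 and 374.1, then 270.6 and 232.5 in IgM cells, and 339.2 and 306.7, then 420.1 and 450.7 in IgMG cells. Its changes of -0.55 ± 0.16 and 0.41 ± 0.16 each lay without overlap of the arrays and did not pass (limma adjusted p = 0.0541 and 0.173). Psmd8, a lid subunit, had the highest mean change, 0.48 ± 0.17 (adjusted p = 0.0801), with 401.3 and 321.9, then 435.6 and 586.9 in IgM cells and 316.6 and 333.7, then 569.5 and 370.1 in IgMG cells. Psmd4, the ubiquitin receptor of the particle also called Rpn10, had the lowest, -0.28 ± 0.14. It read 513.1 and 595.2, then 512.8 and 677.6 in IgM cells, where the arrays overlapped, and 767.6 and 639.1, then 491.9 and 398.7 in IgMG cells, where HEL arrays were lower (-0.64 ± 0.20, adjusted p = 0.0978). Psmd14, the deubiquitinase of the lid, changed by -0.06 and 0.14, and Psmd3, Psmd6, Psmd7, Psmd11 and Psmd13 had mean changes between -0.24 and 0.23, with 0 past the test.

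Psmd5, Psmd9 and Psmd10 are chaperones that help assemble the ATPase ring and leave the finished particle. Psmd5 read 393.7 and 551.5 in unstimulated IgM cells and 152.3 and 218.2 with HEL. In IgMG cells it read 251.9 and 563.4 unstimulated and 310.3 and 296.1 with HEL. It fell in IgM cells by 1.28 ± 0.34 (limma adjusted p = 0.0400), the largest single fall of any member, with no overlap, while the IgMG arrays overlapped (-0.30 ± 0.34). The high IgMG reading of 563.4 came from the array with the NK and myeloid markers. The mean fall of 0.79 ± 0.24 had an adjusted p = 0.0497 and ended without any 1 array other than the first unstimulated IgMG array (adjusted p = 0.0679 to 0.155). The fall in IgM cells ended without any 1 array other than the unstimulated IgMG arrays (adjusted p = 0.0734 to 0.203), and without both arrays that stood apart it was -1.52 (adjusted p = 0.00716). Psmd10, also known as gankyrin, read low, with 55.5 and 77.5, then 86.5 and 105.2 in IgM cells and 66.4 and 66.2, then 73.2 and 67.7 in IgMG cells, and its changes of 0.45 ± 0.22 and 0.07 ± 0.22 did not pass. Psmd9 changed by -0.27 and 0.10, not past the test.

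The activators Psme1, Psme3 and Psme4 did not pass in any HEL response. Psme1 encodes PA28 alpha, which like the immunoproteasome is inducible by interferon gamma and caps the core in a ring with PA28 beta. It read 1235.4 and 1276.4, then 981 and 1269.1 in IgM cells and 1211.6 and 932.7, then 1023.8 and 1083.8 in IgMG cells, overlapping in both, with a mean change of -0.09 ± 0.13. Psme2, the gene of PA28 beta, lies outside the rule because its probe sets are annotated to Psme2b as well, a near-identical copy. Its brighter probe set read 960.5 and 880.1, then 555.8 and 629.6 in IgM cells and 848 and 1066.8, then 564.2 and 735.6 in IgMG cells. These HEL arrays lay below all unstimulated arrays, and the signal of Psme2b and Psme2 fell on average by 0.59 ± 0.13 (limma adjusted p = 0.0149), a call that ended without the first unstimulated IgM array (-0.56, adjusted p = 0.0585) or the first IgMG array with HEL (-0.49, adjusted p = 0.0637). Psme3, the nuclear activator PA28 gamma, read 588.4 and 622.1, then 807.8 and 521.2 in IgM cells and 609.8 and 461.9, then 714.9 and 721.9 in IgMG cells, a mean change of 0.26 ± 0.16. Psme4 changed by -0.12 and 0.03. Of the 2 genes that are no subunits, Psme3ip1 changed by 0.13 and 0.36 without passing, and Psmc3ip was too dim (3.2 to 16.3).

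Over the family, the counts of called genes were low. In IgM cells 2 of 39 tested members fell (Psmb9 and Psmd5), or 5.13%, and 0 rose, where of all tested probe sets 7.27% fell and 6.7% rose. In IgMG cells 2 fell (Psmb8 and Psmb9) and 1 rose (Psmd12), where 2.29% of all tested probe sets fell and 3.1% rose. In the mean response 4 fell (Psmb8, Psmb9, Psmb10 and Psmd5), or 10.3%, and 1 rose (Psma3), where 11% of all fell and 9.18% rose. The share of falls was close to that of all probe sets in IgM cells and in the mean response, and the other counts were of 0 to 2 genes, so nothing about the family is read from them. With 2 arrays a group, 1 array often decided a count: the 2 falls in IgM cells became 0 without the first unstimulated or the second HEL array of IgM cells and 1 without the first IgM array with HEL, the second unstimulated IgM array or either IgMG array with HEL, the 0 rises in IgM cells became 1 without either unstimulated IgMG array, and the 1 rise in IgMG cells became 0 without any 1 array other than the first unstimulated IgMG array. The 2 falls in IgMG cells remained 2 in number only without the first IgM array with HEL and were 1 without the second unstimulated IgMG array and 0 without any other. In the mean response the 4 falls became 2 without the first unstimulated IgM array or either IgMG array with HEL. Most members moved little. Changes stayed within 0.5 of 0 on the log2 scale for 34 of 39 members in IgM cells (87.2%) and 33 in IgMG cells (84.6%), against 65.8% and 73.4% of all tested probe sets. The members were brighter, with a median log2 signal per array of 8.70 to 9.18, against 7.17 to 7.30 for all tested probe sets. What part brightness has in these shares was not tested, so the gap is not read as a property of the family. Median changes of the members were 0.04 and 0.03, and of all tested probe sets -0.02 and -0.05. By the brightest probe set, all 4 HEL arrays lay below all 4 unstimulated arrays for 3 members, which were Psmb8, Psmb9 and Psmb10, and for 12.9% of all tested probe sets. The second probe set of Psmb1 had this arrangement too.

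**Figure D3:**
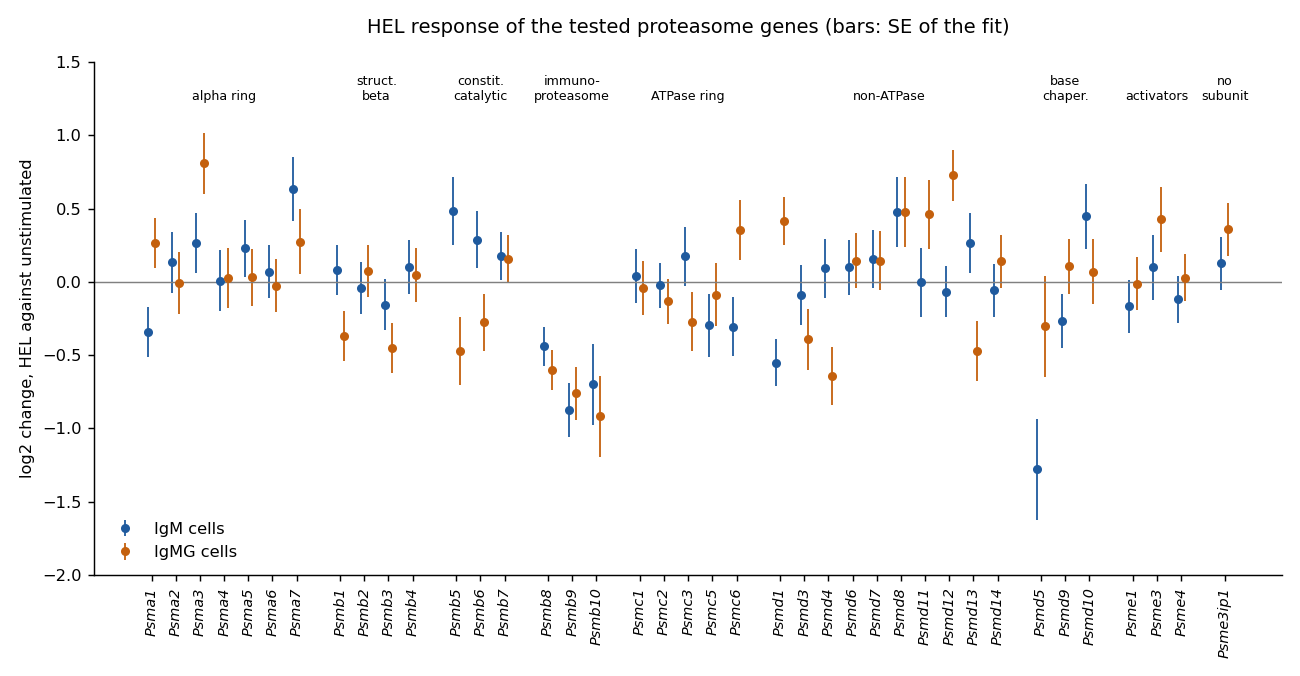
Log2 change with HEL against unstimulated cells (y axis) for each of the 39 tested members, in the order of their roles, with separate points for IgM and IgMG cells and bars for the standard error of the fit. The 3 immunoproteasome genes lie between -0.92 and -0.44 in both receptors, and most others within 0.5 of 0.

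The design asks whether antigen-induced expression differs with the receptor. Without HEL, IgMG and IgM cells had 0 members past the threshold (0% of all tested probe sets), differences between -0.39 and 0.33 on the log2 scale for all 39, and 0 with an unadjusted p under 0.05, against 344 of all 7453 probe sets. The immunoproteasome genes differed by 0.17 for Psmb8, -0.01 for Psmb9 and -0.12 for Psmb10. With HEL, 0 members passed (0.0134% of all probe sets, or 1, passed), 5 had an unadjusted p under 0.05, against 1037 of all 7453 probe sets, and the smallest limma adjusted p was 0.192. Those 5 were Psmd1 (0.76 ± 0.16, IgMG above IgM), Psmc6 (0.56 ± 0.20), Psmd12 (0.42 ± 0.17), Psmb5 (-0.73 ± 0.23) and Psmd13 (-0.58 ± 0.21).
Markers of other cells differed between the receptors as well. The summed NK cell genes read 823.8 and 999.1 on the IgMG arrays with HEL and 338.7 to 457.2 on all IgM arrays, and the myeloid genes 5636.5 and 5702 against at most 4235.8. All 6 tested NK cell genes and all 10 tested myeloid genes had higher means in IgMG than in IgM cells. Median differences were 0.98 and 1.21 with HEL and 1.28 and 0.77 without it. The means without HEL include the second unstimulated IgMG array, which stood apart. On the first, the myeloid genes summed to 2136.3, below the 2731.2 and 4220.1 of unstimulated IgM cells. The NK cell genes there summed to 524.5, above 338.7 and 403.4. All 5 tested erythroid genes were higher in IgMG cells with HEL (median 0.30), and 40% of them without it (median -0.08). The 4 tested marginal zone B cell genes were all higher in unstimulated IgMG cells (median 0.60), with sums of 1223.7 and 1264.6 against 704.3 and 891.7 in IgM cells. With HEL 50% of these 4 were higher (median 0.42). Their part in the differences between the receptors was not tested.
The HEL response itself differed between the receptors past the threshold for 0 members and 0% of all probe sets, with 7 members at an unadjusted p under 0.05, against 750 of all 7453 probe sets, and a smallest limma adjusted p of 0.414. The differences of Psmb8, Psmb9 and Psmb10 were -0.16 ± 0.19, 0.11 ± 0.26 and -0.22 ± 0.39 (IgMG minus IgM). Errors of this size, with a median of 0.27 over the members, leave room for differences as large as the responses themselves. For 6 members the HEL arrays lay above the unstimulated arrays in 1 receptor and below them in the other, with no overlap in either: Psmb5 and Psmb6 were higher in IgM and lower in IgMG cells, and Psma1, Psmd1, Psmd9 and Psmd12 the reverse. This arrangement was found in 5.02% of all tested probe sets, 2.48% with the first order and 2.54% with the reverse.

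Psmb9 and Psmb8 lie in the class II region of the MHC on chromosome 17, interleaved with Tap1 and Tap2, whose products carry peptides from the cytosol to class I molecules. This stretch was examined after the values of its genes had been seen. In the gene order of RefSeq the measured genes run H2-DMa, H2-DMb2, H2-DMb1, Psmb9, Tap1, Psmb8, Tap2, H2-Ob, H2-Ab1 and H2-Aa. The starts of Psmb9 and Tap1 face away from each other 226 bases apart, so 225 bases of the Psmb9 sequence shown above also belong to the 250 bases before Tap1.
The 4 genes Psmb9, Tap1, Psmb8 and Tap2 all fell on average. Tap1 read 1094.3 and 997.3, then 675.5 and 635.6 in IgM cells and 1053.5 and 1039.4, then 845.5 and 686 in IgMG cells, and fell by 0.56 ± 0.11 (limma adjusted p = 0.00838). Tap2 read 473.3 and 455.3, then 287.4 and 361.3 in IgM cells and 550 and 431, then 300.7 and 307.8 in IgMG cells, and fell by 0.58 ± 0.13 (adjusted p = 0.0150). The HEL arrays of both genes lay below all unstimulated ones. Tap2 lost its call without the first unstimulated IgM array (-0.56, adjusted p = 0.0550) or the first (-0.57, adjusted p = 0.0578) or second (-0.59, adjusted p = 0.0573) IgMG array with HEL. Averaging Tap1 with its second probe set, which read 15.3 to 39.5 and was too dim to test, gave -0.17 (adjusted p = 0.421).
Next to these genes, H2-DMa, which helps load peptides on class II molecules, fell by 0.60 ± 0.09 (adjusted p = 0.00313). The changes of H2-DMb2 (-0.49), H2-DMb1 (-0.26) and H2-Ob (-0.31) did not pass, nor did those of the class II chains H2-Ab1 (0.13) and H2-Aa (0.26). Psmb10 lies apart on chromosome 8, between Ctrl and Lcat.

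**Figure D4:**
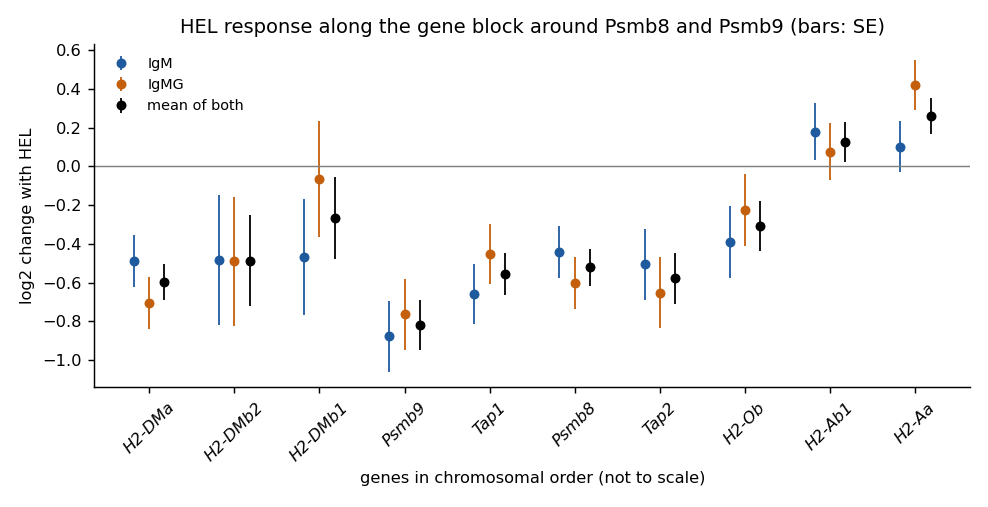
Log2 change with HEL (y axis) of the 10 measured genes in their order along chromosome 17, from H2-DMa to H2-Aa, for IgM cells, IgMG cells and their mean, with bars for the standard error of the fit; spacing is not to scale. Psmb9, Tap1, Psmb8 and Tap2 lie between -0.88 and -0.44 in both receptors, and the class II chains at the right lie above 0.

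Other genes of the pathway were taken from lists, 1 for each role. Of the factors known to regulate proteasome genes, 10 of 15 were tested. In IgM cells 3 rose and 2 fell, beside 6.7% and 7.27% of all tested probe sets. Nfe2l2, the stress factor that binds antioxidant response elements, read 253.7 and 263.1, then 541.4 and 603.2 in IgM cells and 202.4 and 288.7, then 542.1 and 402.1 in IgMG cells. It rose by 1.00 ± 0.15 on average (limma adjusted p = 0.00251), with no overlap. Its small Maf partners rose as well, Mafk by 1.32 ± 0.15 and Mafg by 1.09 ± 0.17 (adjusted p = 0.000581 and 0.00296). Nfe2l1, the factor that raises subunit genes when proteasome activity is short, changed by 0.24 ± 0.21 in IgM and 0.00 ± 0.21 in IgMG cells, and Irf1, an interferon-induced activator of immunoproteasome genes, by 0.21 ± 0.21 and 0.12 ± 0.21, none past the test. The NF-Y subunits Nfyb and Nfyc fell in IgM cells by 0.74 ± 0.21 and 0.78 ± 0.19 (adjusted p = 0.0494 and 0.0258); for Nfyc the sign turned to 0.37 when its dim second probe set was averaged in. Of the 5 members whose windows hold TGACNNNGC, Psmd12 rose in IgMG cells, a call that was not steady, and 0 rose in IgM cells. Of all tested probe sets 3.1% and 6.7% rose, so nothing about the motif is read from these counts.
Of 13 tested partners in assembly and substrate delivery, of 24 listed, 0 rose and 0 fell in either receptor. Pomp, the chaperone of core assembly, changed by 0.28 ± 0.28 and 0.18 ± 0.28, and Psmg1 by -0.17 ± 0.23 and -0.19 ± 0.23. Of the ubiquitin genes, 13 of 22 were tested. In IgM cells 2 rose and 2 fell, beside 6.7% and 7.27% of all tested probe sets. The conjugating enzymes Ube2s and Ube2b rose by 1.21 ± 0.28 and 0.63 ± 0.16, and Ube2r2 and Ube2h fell by 0.94 ± 0.17 and 0.75 ± 0.18. In IgMG cells Ube2b rose by 0.70 ± 0.16 and 0 fell, beside 3.1% and 2.29% of all tested probe sets. These calls within 1 receptor each ended under some alternative, with adjusted p of up to 0.128 for Ube2s, 0.149 and 0.234 for Ube2b, 0.0633 for Ube2r2, 0.216 for Ube2h and 0.250 for Nfyb.
Of the class I antigen processing genes, 11 of 17 were tested. Tap1 fell in IgM cells by 0.66 ± 0.16 (limma adjusted p = 0.0249), Tap1 and Tap2 fell on average and 0 rose. Of all tested probe sets 7.27% fell in IgM cells and 11% on average. The fall of Tap1 in IgM cells ended without any 1 IgM array (adjusted p = 0.0551 to 0.144). The class I light chain B2m changed by -0.20 ± 0.15 in IgM and 0.45 ± 0.15 in IgMG cells, and the heavy chains H2-K1 and H2-D1 by 0.15 ± 0.13 and -0.02 ± 0.12 in IgM cells and by 0.33 ± 0.13 and 0.32 ± 0.12 in IgMG cells. These values did not pass the test.

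Of the 11 further probe sets of the 7 members that had several, 6 were bright enough to be tested. Beside that of Psmb1, the one of Psmb5 read 14.5 and 33.6, then 49.3 and 56.4 in IgM cells, a change of 0.82 ± 0.30, and changed by 0.29 ± 0.30 in IgMG cells, where the brighter one had -0.47 ± 0.23. The direction of Psmb5 in IgMG cells thus differed between its probe sets. A second probe set of Psmc3 changed by 0.34 ± 0.27 and -0.64 ± 0.27, and of Psmd11 by 0.40 ± 0.19 and 0.09 ± 0.19, none past the test.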

How the data were processed

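Each deposited value is an intensity on a linear scale, which the authors computed for every probe set with MAS5 (submitters' processing notes). The trimmed mean of each array (2% off each end) was close to 150.1. The sources used here name no genome build and no further settings. Of 12488 probe sets, 66 controls were left out. Fold changes are on the log2(signal + 16) scale, where those of dim genes come out too small, and the brightest 60% of probe sets by mean were tested (7453 of 12422, lowest mean 23.2). Gene symbols came from the platform annotation. All 42 members matched the GRCm38.p6 gene table by gene identifier, and 0 symbols changed.

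Groups and replicate numbers came from the sample titles. Two-sided tests came from limma 3.58.1 (R 4.3.3), fitted to all 8 arrays with a mean for each group and a trended eBayes step (4 residual and 4.87 prior degrees of freedom), at a Benjamini-Hochberg adjusted p of 0.05. With 2 arrays a side, exact permutation could not give less than p = 0.333. The number of arrays limits the precision. The mean response averages both receptors. Class medians and pair differences carry no test. Genes were named by role, by the largest mean rise and fall of each class and, in lists, by the largest calls in IgM cells.

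The members, classes and gene lists were chosen with earlier results of these data known. The fit was tested on simulated data. Alternatives covered the offset, scaling, filter, trend, arrays fitted, a replicate block, single arrays left out, means over probe sets, the threshold and a rule without a test, and, chosen after seeing the data, a Gapdh 5′ to 3′ covariate, leaving out both arrays that stood apart and a crossed block. Promoter windows were searched and figures drawn with Python 3.11.15 and matplotlib 3.10.9.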

Additional observations from a re-analysis of the deposited data

Results flagged for a closer look

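For 6 of the 39 tested members, both HEL arrays lay on one side of both unstimulated arrays in IgM cells and on the other side in IgMG cells, which marks a possible difference between the receptors. Among all tested probe sets, 5.02% had this arrangement. Some gaps were small: in IgM cells Psmd12 read 327.7 with HEL against 328.1 without, and Psmb6 361.5 against 357.1, at their nearest. The test of that difference, the response in IgMG cells minus that in IgM cells on the log2 scale, passed for none of the 6. Psmd1, the large base scaffold, had the clearest difference, 0.97 ± 0.23 (limma adjusted p = 0.414). Psmd12, a lid subunit, had 0.79 ± 0.25 (adjusted p = 0.414). Psma1, an alpha subunit, had 0.61 ± 0.24 (adjusted p = 0.465), and Psmd9, a chaperone, had 0.37 ± 0.26 (adjusted p = 0.624). Psmb5 and Psmb6, both catalytic, differed the other way, with -0.95 ± 0.33 (adjusted p = 0.437) and -0.56 ± 0.27 (adjusted p = 0.490). The second probe set of Psmb5 had a change above 0 in IgMG cells, so its direction there is uncertain.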

How the results depend on the processing

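The mean fall of Psmb9 passed under all 21 alternatives (-0.92 to -0.72), that of Psmb8 under 20 and that of Psmb10 under 18. Of the other gene values, 1 turned its sign with a call at stake, Nfyc in IgM cells (0.37 with its dim probe set averaged in). In IgM cells the 2 falls became 1 without the filter on dim probe sets or without the trend and 4 with the brightest 40% tested or at a threshold of 0.1, and the 0 rises became 1 with probe sets averaged, at that threshold or by the rule without a test. In IgMG cells the 1 rise became 0 without the filter, without the trend, with only the arrays compared, with the Gapdh covariate or without both arrays that stood apart, and 2 with the brightest 40%, with probe sets averaged, at a threshold of 0.1 or without a test. The 2 falls there became 0 with arrays centred on their medians, without the filter, without the trend or with the Gapdh covariate, 1 with only the arrays compared or without both arrays that stood apart, and 4 at a threshold of 0.1 or without a test. In the mean response the 1 rise became 2 with centred arrays or the Gapdh covariate, 4 at a threshold of 0.1, and 0 without the filter, without the trend or without a test, and the 4 falls became 2 without a test. Between the receptors with HEL, the rule without a test gave 3 members, Psmb5, Psmd1 and Psmd5. Its share over all tested probe sets was not computed, so nothing about the receptors is read from these members. Causes of these shifts were not tested. With 1 array left out in turn, rises numbered 0 to 1 in each of the 3 responses, and falls 0 to 2 in either receptor and 2 to 4 on average. The immunoproteasome median then lay between -0.98 and -0.40 with IgM, between -0.93 and -0.57 with IgMG and between -0.90 and -0.60 on average, and the constitutive median between 0.22 and 0.54 in IgM cells. The pair difference of Psmb10 and Psmb7 in IgM cells lay between -1.31 and -0.44, and that of Psmb9 and Psmb6 in IgMG cells between -0.71 and -0.26. Averaging probe sets gave constitutive medians of -0.093 in IgMG cells and 0.17 on average, and -0.51 for Psmb8 against Psmb5 in IgMG cells, a difference that lay between -0.42 and 0.15 with 1 array left out. With the Gapdh covariate the 2 falls in IgM cells were those of Psmb10 and Psmd5.

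Same-numbered arrays did not deviate together (r between -0.16 and 0.02 over probe sets), and with 2 numbers the design gives no pairing. With the replicate block, IgMG cells had 0 rises and 0 falls, while IgM cells kept counts of 0 and 2 and the mean response of 1 and 4. Crossing the numbers of the unstimulated arrays left 0 members different. The rule without a test was not run for the difference of the responses, and the fit of only the arrays compared cannot give the mean or that difference. Signals near background are the least certain, and 3 members were too dim to test.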

Other observations

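Genes known to be induced by interferons were also lower with HEL. Of 19 tested genes of 27 listed, 11 fell in IgM cells, 3 fell in IgMG cells and 10 fell in the mean response, and 0 rose in any of these, where 7.27%, 2.29% and 11% of all tested probe sets fell. Median changes of the list were -1.05 in IgM cells, -0.57 in IgMG cells and -0.63 on average, beside -0.02, -0.05 and -0.04 for all tested probe sets. The largest falls in IgM cells were those of Gbp3, a guanylate-binding GTPase, by 2.83 ± 0.40 (limma adjusted p = 0.00277) and Ifit3, an antiviral protein that binds RNA complexes, by 1.96 ± 0.30 (adjusted p = 0.00418). Igtp, an interferon-inducible GTPase, fell in both receptors, by 1.07 ± 0.18 and 0.88 ± 0.18 (adjusted p = 0.00579 and 0.0260). These calls of Igtp were not steady: that in IgM cells ended without the first unstimulated IgM array (adjusted p = 0.0513), and that in IgMG cells ended under 6 of 22 alternatives, among them leaving out the first (adjusted p = 0.146) or second (adjusted p = 0.145) IgMG array with HEL, the first unstimulated IgMG array (adjusted p = 0.0858) or the second unstimulated IgM array (adjusted p = 0.0505). Whether the falls of the immunoproteasome genes and of these genes are related was not tested.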
